A study of Mus musculus with 5 samples.

Results

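The Hedgehog pathway genes described here are 9 genes of the deposited count table, taken by symbol: Gas1, Cdon and Boc, which encode coreceptors for Hedgehog ligands, Ptch1 and Smo, the receptor and the signal transducer, Gli1, Gli2 and Gli3, the transcription factors, and Hhip, an inhibitor at the cell surface. They are 9 of the 54532 genes in the table, and all 9 passed the filter on low counts. RNA was sequenced from 5 sorted libraries of fat progenitors of wild-type chow-fed mice, 2 from subcutaneous fat (SAT) and 3 from visceral fat (VAT). Stroma from 30 mice (12 to 14 weeks of age) was released with collagenase. Sorting removed cells with CD31 or CD45, which mark endothelial and immune cells, and separated the remainder by CD26, a marker of interstitial progenitors encoded by Dpp4, and by CD142, encoded by F3. The labels do not say how animals were pooled or whether libraries came from separate pools, so p-values measure only the spread between these libraries.

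By title, SAT library 1 is CD26+CD142-, SAT library 2 is CD26-CD142+, VAT CD26-CD142+ has libraries 1 and 2, and VAT CD26+CD142+ has 1 library. The library names of the submitters give the opposite gates for the SAT pair: library 1 is named for CD142 and library 2 for CD26. Dpp4 was at 6.58 CPM (counts scaled to library size) in SAT library 1 and 1007 CPM in SAT library 2, and F3 was at 618 and 5.32 CPM, so these RNAs went with the names and against the titles. SAT libraries are therefore called by number, and comparisons that use their gates were made by title and again by name.

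In the absence of ligand, the receptor PTCH1 keeps SMO inactive, and GLI3 is cut into a repressor, a step that depends on the primary cilium. When Sonic, Indian or Desert hedgehog binds PTCH1 with a coreceptor, SMO is released and full-length GLI proteins, chiefly GLI2, activate targets that include Gli1, Ptch1 and Hhip. In fat, activation of the pathway is known to hold back the differentiation of progenitors into adipocytes.

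Promoter sequences from the mouse RefSeq table on GRCm38.p6 matched 7 of the 9 genes; Gli1 and Boc were not matched. The 250 bases before the annotated start are given for Hhip and Gli2, which were higher in SAT library 1 than in SAT library 2, and for Smo, the gene that varied least, all read 5′ to 3′ on the strand of the gene with CG dinucleotides in capitals. Hhip lies at chr8:80058009-80058258 on the minus strand, Gli2 at chr1:119053620-119053869 on the minus strand and Smo at chr6:29735247-29735496 on the plus strand.
Hhip: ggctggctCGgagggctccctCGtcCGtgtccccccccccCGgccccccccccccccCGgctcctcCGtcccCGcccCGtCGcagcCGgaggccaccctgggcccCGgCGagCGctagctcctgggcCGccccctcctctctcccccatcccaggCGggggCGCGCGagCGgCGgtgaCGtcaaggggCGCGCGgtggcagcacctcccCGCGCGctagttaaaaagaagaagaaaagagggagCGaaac
Gli2: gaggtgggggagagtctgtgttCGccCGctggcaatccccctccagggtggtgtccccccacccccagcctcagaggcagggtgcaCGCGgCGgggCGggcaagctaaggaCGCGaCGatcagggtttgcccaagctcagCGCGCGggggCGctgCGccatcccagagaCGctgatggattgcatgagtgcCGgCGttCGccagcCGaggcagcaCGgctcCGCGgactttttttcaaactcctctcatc
Smo: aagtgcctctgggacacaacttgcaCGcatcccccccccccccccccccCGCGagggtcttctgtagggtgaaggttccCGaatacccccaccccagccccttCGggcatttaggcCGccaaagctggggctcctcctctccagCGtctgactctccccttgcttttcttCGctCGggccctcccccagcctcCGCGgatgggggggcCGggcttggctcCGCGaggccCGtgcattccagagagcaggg

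All 3 stretches are rich in G and C, at 76% for Hhip, 67.2% for Gli2 and 68.4% for Smo, and hold 28, 22 and 15 CG dinucleotides. A GLI binding motif, GACCACCCA, and the 8-base GACCACCC inside it were searched on both strands of windows from 250 bases before to 50 bases after each start. Neither was found in the windows of the 7 genes, of which those of Cdon and Ptch1 lie 30948 and 7863 bases inside the counted gene, at other annotated starts. Of all 32851 windows of that length in the table, 0.253% held the 9-base motif and 0.807% the 8-base motif.

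Total counts ran from 21706345 to 25357403 per library. All 10 progenitor markers, Pdgfra and Col1a1 among them, were at 1 CPM or more in every library. Mitochondrially encoded genes took 2.83% of the counts of SAT library 1 and 4.33% of those of VAT CD26-CD142+ library 1, against 0.554% to 0.633% in the libraries numbered 2. Epithelial RNA was highest in SAT library 1: the 8 epithelial markers summed to 63.3 CPM there and to 0.387 to 8.98 CPM elsewhere, with Epcam at 25.2 and Csn3 at 17.0 CPM, but Krt14 at 0. Tek was the main endothelial marker, at 286 to 290 CPM in the libraries named for CD26 and 19.9 to 66.7 CPM in the others, while Pecam1 was at 7.26 CPM or less.

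Gas1 encodes a membrane-anchored coreceptor that binds Hedgehog ligand. It lies at chr13:60174405-60177365 (mm10, minus strand), and its level was 594 CPM in SAT library 1, 237 CPM in SAT library 2, 820 and 613 CPM in the VAT CD26-CD142+ pair and 403 CPM in the VAT CD26+CD142+ library. Within each depot the library named for CD26 was the lower. Per kilobase of gene length, the level of Gas1 was 200.5, 79.9, 277, 207 and 136 CPM in the same order, the highest of the 9 genes in every library.

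Boc and Cdon encode related immunoglobulin-family coreceptors. Boc (chr16:44485049-44558897, minus strand) was at 164 and 61.0 CPM in SAT libraries 1 and 2, at 327 and 509 CPM in the VAT CD26-CD142+ pair and at 209 CPM in the VAT CD26+CD142+ library. Both SAT libraries were below all VAT libraries. Cdon (chr9:35421128-35507652, plus strand) was at 133 and 269 CPM in SAT, at 169 and 247 CPM in the VAT CD26-CD142+ pair and at 362 CPM in the VAT CD26+CD142+ library. Its order across gates was the opposite of that of Gas1, with the library named for CD26 the higher in each depot. Per kilobase, the ratio of Boc to Cdon was 2.14 in SAT library 1 against 0.393 in SAT library 2, 3.36 and 3.57 in the VAT CD26-CD142+ pair and 1.00 in the VAT CD26+CD142+ library. Of the summed level per kilobase of the coreceptors, Cdon made up 27.1% and 20.4% in the libraries named for CD26 and 5.88% to 9.07% in the others.

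Ptch1 encodes the receptor and is also a target of the pathway. It lies at chr13:63508328-63573598 (minus strand) and was at 14.3 and 15.9 CPM in SAT, at 10.7 and 21.8 CPM in the VAT CD26-CD142+ pair and at 21.4 CPM in the VAT CD26+CD142+ library. The replicate pair held both its lowest and its highest value. Smo (chr6:29735503-29761365, plus strand) was at 79.4 and 78.6 CPM in SAT, at 74.9 and 77.2 CPM in the VAT pair and at 82.6 CPM in the VAT CD26+CD142+ library. It was close to level across depots and gates: its highest library was 1.10 times its lowest, and only 0.258% of tested genes had an SD of log2(CPM + 1) over the 5 libraries as small or smaller.

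Gli2 encodes the main activator of the family. It lies at chr1:118834132-119053619 (minus strand) and was at 25.7 CPM in SAT library 1, 6.81 CPM in SAT library 2, 22.8 and 39.4 CPM in the VAT CD26-CD142+ pair and 25.1 CPM in the VAT CD26+CD142+ library. SAT library 2 stood below the other 4 libraries. Gli3 (chr13:15463235-15730026, plus strand), whose product acts chiefly as a repressor, was at 30.6 and 35.3 CPM in SAT, at 55.5 and 76.0 CPM in the VAT pair and at 62.0 CPM in the VAT CD26+CD142+ library. As for Boc, both SAT libraries were below all VAT libraries.

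Gli1, a factor whose transcription is the usual readout of pathway activity, lies at chr10:127329882-127341974 (minus strand). It was at 44.7 CPM in SAT library 1 and at 1.76 CPM in SAT library 2 (exact Poisson 95% interval 1.25 to 2.40 CPM, from 39 reads). In VAT it was at 10.1 and 13.1 CPM in the CD26-CD142+ pair and at 7.87 CPM in the CD26+CD142+ library. All VAT values lay between those of the SAT pair. Hhip (chr8:79965851-80058006, minus strand), a target whose product binds ligand and limits signalling, was at 11.8 CPM in SAT library 1 and 0.271 CPM in SAT library 2 (0.0993 to 0.589 CPM, from 6 reads). In VAT it was at 3.35 and 2.49 CPM in the CD26-CD142+ pair and at 0.618 CPM (0.346 to 1.02 CPM) in the CD26+CD142+ library. The 3 VAT values again lay between those of SAT, and the CD26-CD142+ pair did not differ beyond counting error (ratio 1.34, exact 95% interval 0.937 to 1.93). These intervals hold counting error alone: the reads carry no molecular identifiers, so they do not stand for independent molecules.

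**Figure D1:**
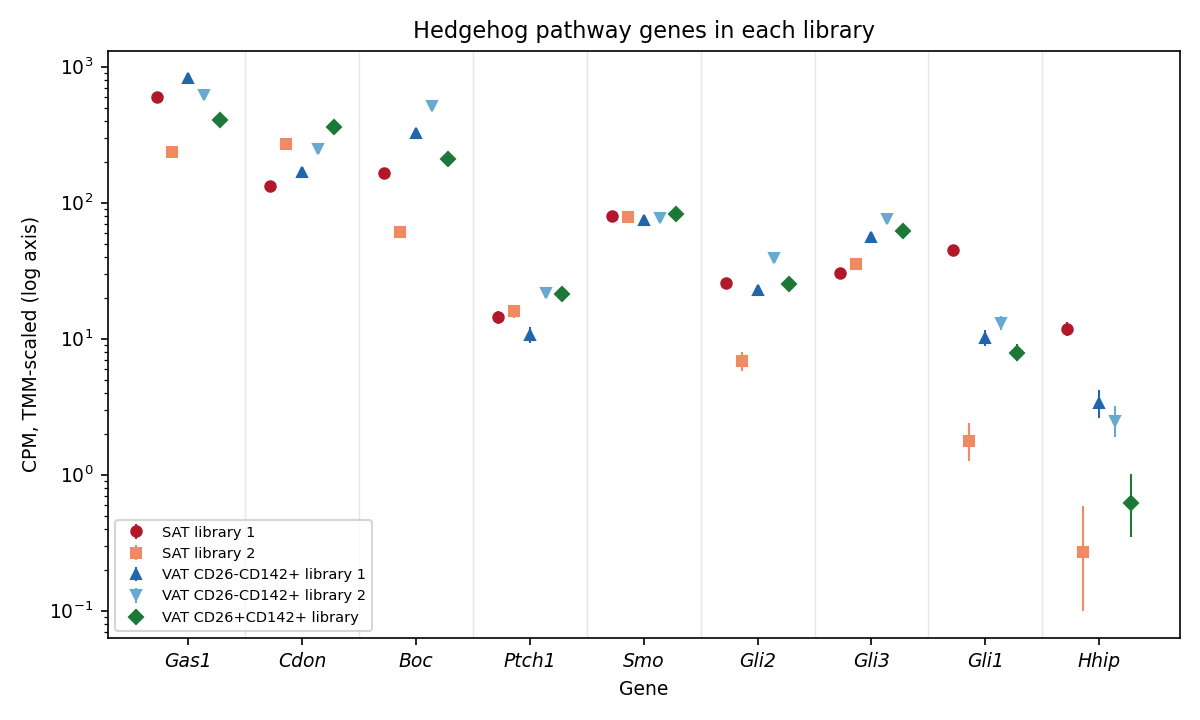
Level of each Hedgehog pathway gene in the 5 libraries, in TMM-scaled CPM on a log axis; points are libraries and bars are exact Poisson 95% intervals. Smo is level at 74.9 to 82.6 CPM, whereas Gli1 ranges from 1.76 CPM in SAT library 2 to 44.7 CPM in SAT library 1.

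The leading GLI factor was not the same in the SAT libraries. Per kilobase, Gli1 made up 56.3% of the summed GLI level in SAT library 1 and 7.01% in SAT library 2, with 18.2%, 16.1% and 13.5% in the VAT CD26-CD142+ pair and the VAT CD26+CD142+ library. Gli3 made up 20.1% in SAT library 1 and 73.2% in SAT library 2, and 48.7% to 55.3% in VAT. The ratio of Gli3 to Gli1 per kilobase was therefore 0.357 in SAT library 1 and 10.4 in SAT library 2, and lay between these values, at 2.85, 3.03 and 4.10, in VAT. These shares rest on 1 library of each SAT gate and have no replicate check.

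**Figure D2:**
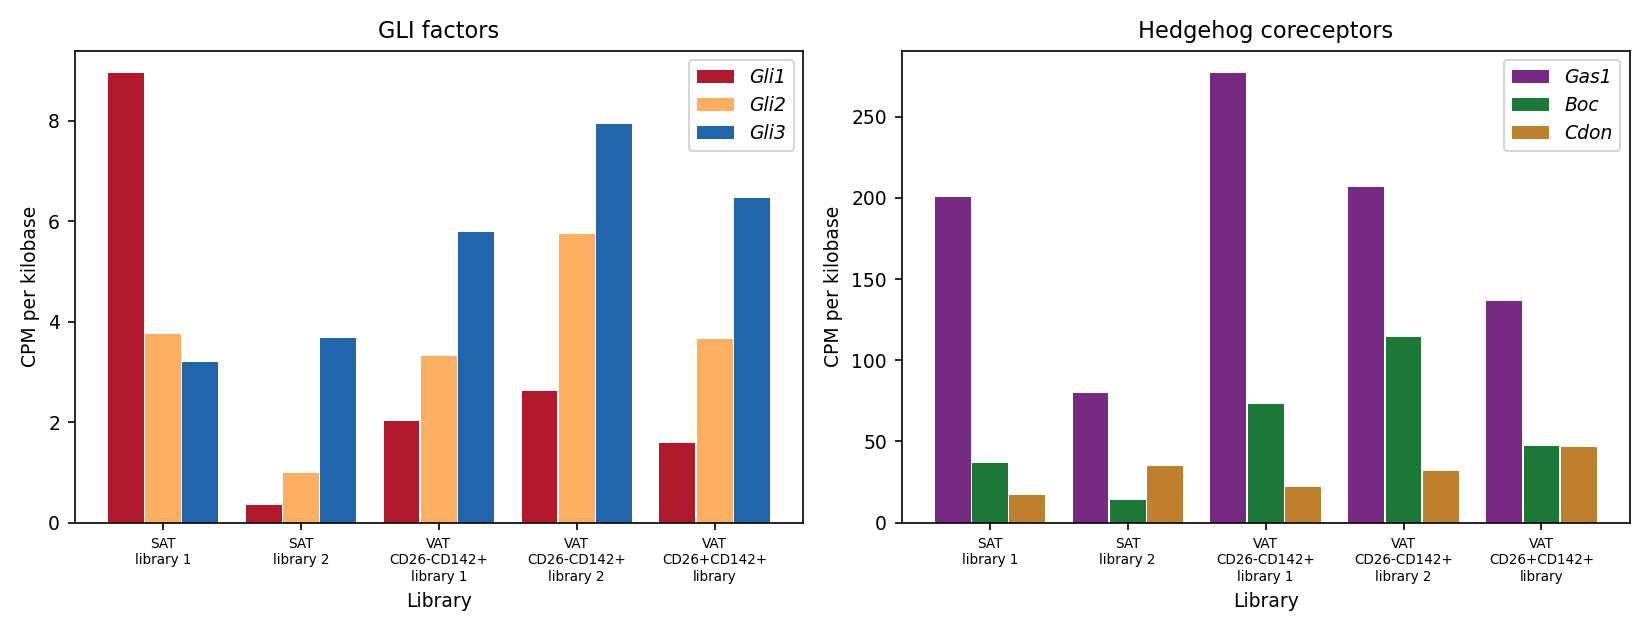
Level per kilobase of gene length (CPM per kilobase) of the GLI factors and of the coreceptors in each of the 5 libraries; each bar is 1 library. Gli1 is the highest GLI factor only in SAT library 1 (8.95 CPM per kilobase), and Gli3 is the highest in the other 4.

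The depots do not hold the same gates. All VAT libraries were sorted as CD142+, whereas SAT holds a CD26+CD142- gate that VAT lacks, so depot and gate cannot be fully told apart. Comparing depots over all gates, Boc and Gli3 were the genes with lower CPM in both SAT libraries than in any VAT library. Gli3 averaged 32.9 ± 3.31 CPM in SAT (SD, n = 2) and 64.5 ± 10.5 CPM in VAT (SD, n = 3), and Boc averaged 113 ± 73.0 and 348 ± 151 CPM. Such a gap without overlap, lower in SAT, was found for 2 of the 9 genes and for 10.2% of all 15920 tested genes. None of the 9 passed edgeR's quasi-likelihood test with Benjamini-Hochberg adjustment over all tested genes, against 0.0503% of all genes. At an unadjusted p under 0.05 there were 2 of the 9 and 1076 of all tested genes, DESeq2 passed 1 (Gli3) and 461 of all, and limma-voom 0 of both. The log2 change of SAT against VAT was -0.97 for Gli3 (SE 0.24, edgeR adjusted p = 0.451) and -1.63 for Boc (SE 0.60, edgeR adjusted p = 0.685). With DESeq2 the change of Gli3 was -0.96 with an adjusted p of 0.0423, and over all alternatives its adjusted p ran from 0.0423 to 1.00.

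The SAT means of Gli1 and Hhip each combine the highest and the lowest of the 5 libraries. Gli1 averaged 23.2 ± 30.4 CPM in SAT and 10.4 ± 2.61 CPM in VAT, and its log2 change was 1.17 (SE 1.12). Hhip averaged 6.02 ± 8.13 CPM in SAT and 2.15 ± 1.40 CPM in VAT, with a log2 change of 1.48 (SE 1.39). Without SAT library 1 the changes were -2.56 and -2.97. Smo averaged 79.0 ± 0.586 CPM in the SAT pair and 78.2 ± 3.95 CPM over the VAT libraries, a log2 change of 0.01 (SE 0.20). The median change of the 9 genes was -0.37, against 0.01 over all tested genes. Of all markers of other cell types, 1 passed edgeR's test for depot: Wt1 of the mesothelial list, at 0 and 0.0451 CPM in SAT and 112 to 154 CPM in VAT. The median log2 change of the mesothelial list was -5.39, and its sum was 173 and 4.65 CPM in SAT and 116 to 358 CPM in VAT, with Msln at 0 in both SAT libraries. Schwann cell markers summed to 56.9 and 66.3 CPM in SAT and 16.9 to 18.8 CPM in VAT, with Sox10 at 0 in every library except SAT library 1. The part of these lists in the result was not tested. In sorted bulk libraries, fewer cells that express a gene and less RNA per cell cannot be told apart.

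Within VAT the gates do not depend on the choice of label. The CD26+CD142+ library had less Hhip, Boc, Gas1 and Gli1 and more Cdon and Smo than both CD26-CD142+ libraries, but no difference passed the test. For Smo the gap was small, at 82.6 against 74.9 and 77.2 CPM. Gli2, Gli3 and Ptch1 lay within the pair. The share of all tested genes that lie outside the pair in this way was not counted, so this order is a description of 1 library. Hhip was 5.41 times higher in CD26-CD142+ library 1 than in the CD26+CD142+ library (exact 95% interval 3.08 to 10.2) and 4.03 times higher in library 2 (2.26 to 7.66). The fitted log2 change of Hhip was -2.23 (SE 0.82, edgeR adjusted p = 0.329). The fitted log2 values were -0.997 for Boc (SE 0.54), -0.83 for Gas1 (SE 0.54), 0.80 for Cdon (SE 0.49) and -0.56 for Gli1 (SE 0.51). Of the 9 genes, 0 passed edgeR's test, against 1.6% of all tested genes. Of the 9, 1 had an unadjusted p under 0.05, as did 1334 of all tested genes, and DESeq2 and limma-voom passed 0 of the 9, against 347 and 222 of all. The spread here comes from 1 replicate pair, in which Ptch1 differed 2.04-fold (1.74 to 2.39), so its log2 change of 0.40 (SE 0.52) became -0.03 without CD26-CD142+ library 1. None of the 9 genes was at least 2-fold apart in that pair after adding 1 CPM, with 10 CPM or more in the higher library, against 5.74% of all tested genes. Hhip, under 10 CPM in both libraries of the pair, could not be counted, and Ptch1 fell just short after the added CPM. Mesothelial markers summed to 358 CPM in the CD26+CD142+ library and 116 and 171 CPM in the pair, and 5 of the 10 passed as higher. Mural markers summed to 119 CPM against 208 and 222 CPM, with 2 of 8, Abcc9 and Myh11, passing as lower, in the direction of the lower Hhip, Boc and Gas1. Endothelial Tek passed as higher. The part of these cell types in the values was not tested.

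Across both depots with gates taken by library name, the CD26 libraries had lower Gli1, Hhip and Gas1 and higher Cdon than every CD142-only library. Of the 9 genes, 3 were lower without overlap, against 17.3% of all tested genes, and 1 was higher without overlap, against 16.8%. F3 was lower in the CD26 libraries too, at 5.32 and 99.1 CPM against 241 to 618 CPM, and the SAT gates differ in CD142. CD26 and CD142 therefore cannot be told apart in this split. Both CD26 libraries are also numbered 2. The fitted log2 changes were -3.45 for Hhip (SE 0.87), -1.99 for Gli1 (SE 0.99), -1.18 for Boc (SE 0.31), -1.04 for Gas1 (SE 0.30) and 0.89 for Cdon (SE 0.28). Gli3 at 0.04 (SE 0.25), Smo at 0.06 (SE 0.20) and Ptch1 at 0.29 (SE 0.36) lay within about their own error of 0, and the sign for Gli3 turned under upper-quartile scaling (-0.01). Gli2 was at -0.95 (SE 0.47). Of the 9 genes, 0 passed edgeR's test, with adjusted p from 0.170 for Hhip to 0.945 for Gli3, against 0.597% of all genes. At an unadjusted p under 0.05 there were 4 (Hhip, Boc, Gas1 and Cdon) and 2551 of all tested genes. Limma-voom passed 0 of the 9 and 127 of all. DESeq2 passed 1329 of all and 3 of the 9: Hhip (adjusted p = 0.000735), Boc (0.0107) and Gas1 (0.0173). Leaving out VAT CD26-CD142+ library 2 brought Gas1 (-1.17, edgeR adjusted p = 0.0445) and Cdon (1.07, 0.0404) past the threshold. In that setting 2034 of all 15445 tested genes passed, against 95 of 15920 in the main fit. Without the VAT CD26+CD142+ library the gate contrast was SAT library 2 against SAT library 1 alone, with each assumed to vary like the VAT pair. The changes were then -4.65 for Gli1 and -5.40 for Hhip. Without SAT library 1 the change of Gli1 was -0.54 and without SAT library 2 it was -0.55. By title, 0 of all tested genes passed edgeR's test (140 at an unadjusted p under 0.05, 16 with DESeq2 and 0 with limma-voom), and the values of the 9 genes are not given, since that split sets libraries with opposite Dpp4 levels together. Tek and the endothelial sum (322 and 304 CPM against 35.7 to 76.4 CPM) moved with the gate by name. So did the mural sum, at 55.0 and 119 CPM in the CD26 libraries against 152 to 222 CPM, the direction of Hhip, Gli1 and Gas1; Abcc9 was the 1 marker of another cell type to pass, as lower, and the mural median was -0.94. The part of these markers in the result was not tested.

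**Figure D3:**
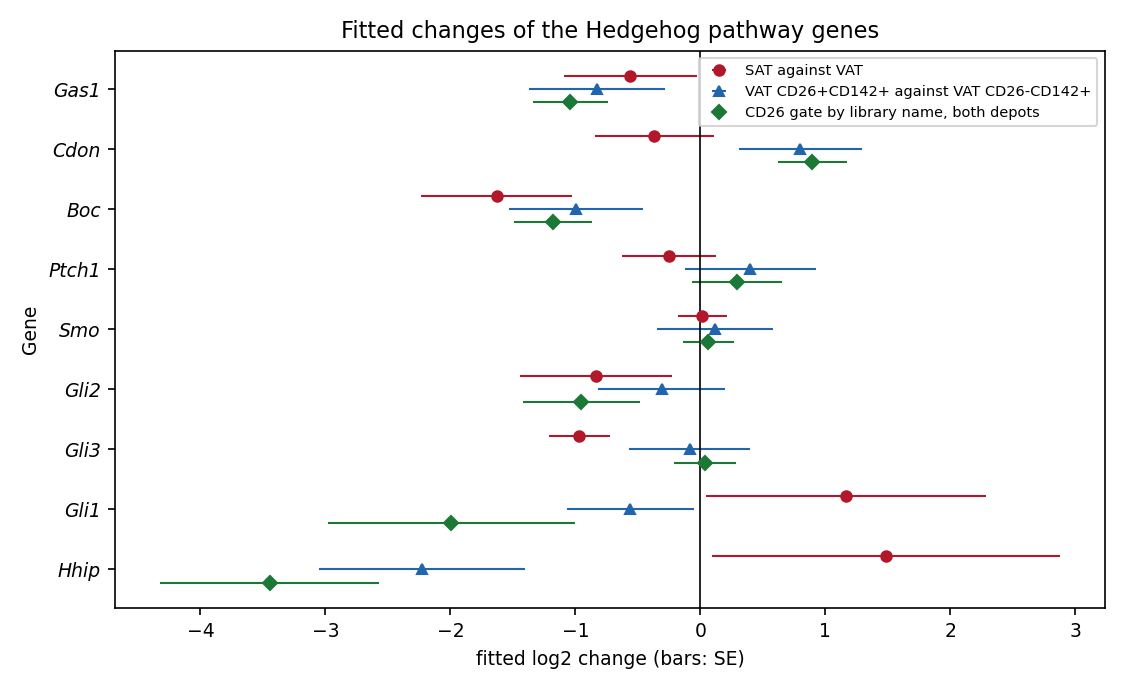
Fitted log2 change of the 9 genes in edgeR for SAT against VAT, for the VAT gates and for the CD26 gate by library name with depot as a term; bars are 1 SE on each side. None passed the adjusted threshold; the changes of Hhip and Gli1 are positive for depot and negative for both gate contrasts.

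The gate difference of Gli1 by library name was larger in SAT than in VAT, but the sorts set against each other are not alike. The SAT libraries differ in CD142 as well as CD26, with F3 at 5.32 against 618 CPM, whereas in VAT the gates are both CD142+, with F3 at 99.1 against 379 and 241 CPM. Depot and the CD142 gate therefore cannot be told apart in this contrast. The SAT libraries also differ in library number and in mitochondrial share, at 2.83% and 0.554%. In SAT the gate cannot be told apart from these either. By library name, the log2 gate effect of Gli1 in SAT minus that in VAT was -4.10 (SE 0.79, edgeR quasi-likelihood adjusted p = 0.0391), which passed. It was 1 of the 9 genes; 0.251% of all tested genes passed in either direction and 0.214% in this one. For Hhip the difference was -3.19 (SE 1.21, edgeR adjusted p = 0.718) and for Gli2 -1.61 (SE 0.77, edgeR adjusted p = 1.00), so neither passed. Limma-voom gave an almost equal size for Gli1, -4.10, with an adjusted p of 0.198, and without VAT CD26-CD142+ library 1 or 2 the value was -3.93 or -4.29. The mesothelial or epithelial keratins Krt7, Krt8 and Krt18 passed in the same direction as Gli1, and their part was not tested. Over the alternatives by name, the adjusted p of Gli1 lay between 0.000393 and 0.198.

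By title the sign of the SAT gate is turned. The difference was then 5.22 for Gli1 (SE 0.84, edgeR adjusted p = 0.0010) and 7.64 for Hhip (SE 1.31, edgeR adjusted p = 0.0018). These were 2 of the 9 genes; 6.61% of all tested genes passed in either direction and 3.89% in this one, and Gli2 was at 2.23 (SE 0.79, edgeR adjusted p = 0.128). The magnitude for Hhip was larger by title because the SAT and VAT effects then have opposite signs. The SAT gates have 1 library each, so these tests take the spread of SAT from the VAT pair, with 1 residual degree of freedom.

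**Figure D4:**
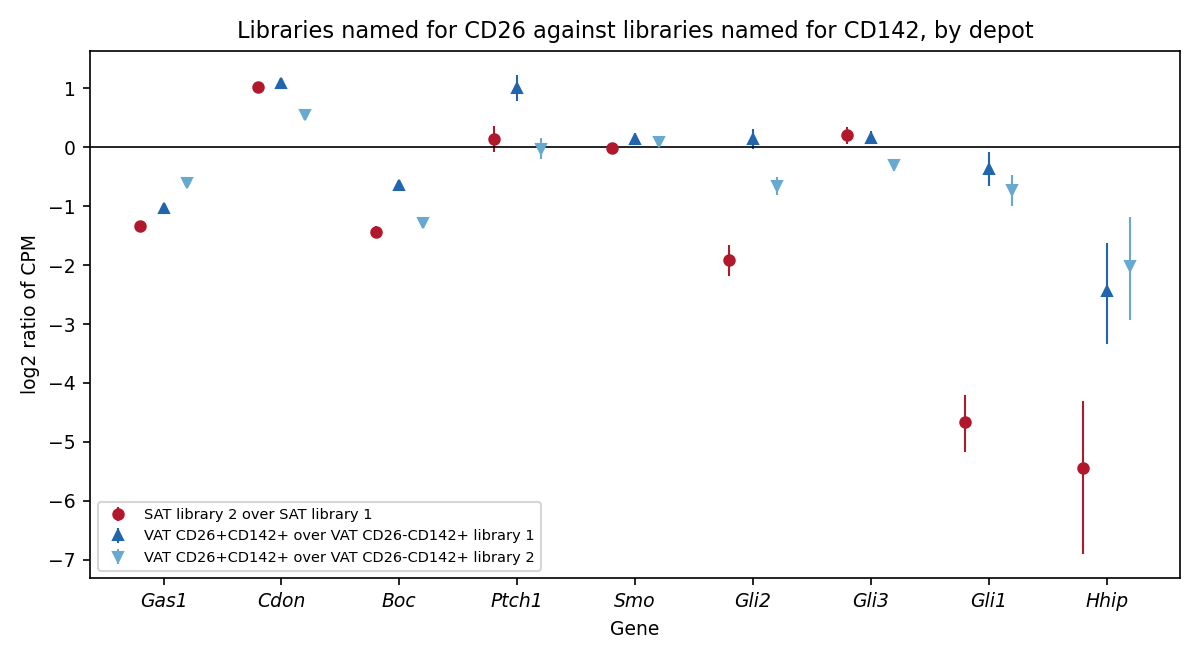
log2 ratio of CPM in a library named for CD26 over a library named for CD142, for SAT and for each VAT CD26-CD142+ library; bars are exact 95% intervals for counting error. Gli1, Hhip and Gli2 lie lower in SAT than in both VAT ratios, as do Gas1, Boc and Smo by a smaller gap. Gli3 lies higher by a small gap, and Smo is near 0 in all 3. The share of all tested genes with SAT outside both VAT ratios was not counted.

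The SAT pair has no replicate of its own and is described here without a test, by the rule of at least a 2-fold difference after adding 1 CPM, with 10 CPM or more in the higher library. By this rule 5 of the 9 genes were higher in SAT library 1, against 6.79% of all tested genes, and 1, Cdon, was lower, against 6.78%. Gli1 was 25.4 times higher in library 1 (exact 95% interval 18.5 to 35.9) and Hhip 43.5 times (19.7 to 120). Gli2 was 3.78 times higher (3.16 to 4.55), Boc 2.69 times (2.53 to 2.87) and Gas1 2.51 times (2.43 to 2.59). Cdon was 2.02 times higher in library 2 (1.94 to 2.12), just past the limit, and was no longer counted with a pseudocount of 5 CPM or under upper-quartile scaling. The ratios of library 1 to library 2 for Smo, 1.01 (0.946 to 1.08), and Ptch1, 0.902 (0.774 to 1.05), had intervals that span 1, and that for Gli3 was 0.867 (0.782 to 0.961). The targets thus did not go together in these libraries: Gli1 and Hhip differed by over an order of magnitude, and Ptch1 did not differ beyond counting error. In the VAT replicate pair Ptch1 differed 2.04-fold, so a ratio of lone SAT libraries cannot show that Ptch1 is unchanged.

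Against the VAT libraries of the same named gate, SAT library 1 was higher for Gli1, Hhip and Smo and lower for all coreceptors and Gli3. Gli2 and Ptch1 lay within the VAT pair. For Smo the gap was small, at 79.4 against 74.9 and 77.2 CPM, as was the gap of Gas1 to VAT library 2. The share of all tested genes that lie outside that VAT pair was not counted, so this order is a description of 1 SAT library. Gli1 was 4.41 times (3.81 to 5.13) and 3.42 times (3.01 to 3.90) the level of VAT CD26-CD142+ libraries 1 and 2, and Hhip 3.52 times (2.71 to 4.62) and 4.72 times (3.54 to 6.38). VAT libraries 1 and 2 were in turn 1.99 (1.91 to 2.07) and 3.10 times (2.99 to 3.22) the level of SAT library 1 for Boc, 1.81 (1.65 to 1.99) and 2.49 times (2.28 to 2.72) for Gli3, 1.27 (1.21 to 1.33) and 1.86 times (1.78 to 1.95) for Cdon, and 1.38 (1.35 to 1.41) and 1.03 times (1.01 to 1.06) for Gas1. Between the libraries named for CD26, Gli2 was 3.69 times (3.08 to 4.43) and Boc 3.43 times (3.23 to 3.65) higher in the VAT CD26+CD142+ library than in SAT library 2, and these 2 of the 9 genes met the 2-fold rule, against 2.83% of all tested genes in that direction. Gli1 was 4.48 times higher there (3.16 to 6.49), but at under 10 CPM in either library was not counted. The libraries named for CD26 differ in CD142 as well, with F3 at 5.32 CPM in SAT library 2 and 99.1 CPM in VAT. Depot and the CD142 gate therefore cannot be told apart in these ratios. The epithelial RNA and the mitochondrial share given above set SAT library 1 apart from SAT library 2, and so did the progenitor sum, at 37359 against 23578 CPM. The mesothelial sum was 173 against 4.65 CPM, and 4 of the 10 markers (Krt7, Krt8, Krt18 and Krt19) met the 2-fold rule as higher, while Wt1 and Msln were at 0 in library 1. Of the 8 mural markers, 3 were higher, Abcc9 (98.2 against 12.0 CPM), Kcnj8 and Notch3, and 1 was lower, Des (3.20 against 14.4 CPM). Macrophage Cd68 and Csf1r were higher as well, Tek was lower, and of the Schwann markers S100b was higher and Mbp lower. The part of these markers in the ratios was not tested.

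The rest of the pathway was read from lists holding 62 other genes, of which 54 passed the filter. None of the ligands did. Shh had 0 reads in all 5 libraries; Ihh had 0 and 3 reads in SAT libraries 1 and 2, and 6, 12 and 3 reads in the VAT pair and the VAT CD26+CD142+ library; Dhh had 0, 6, 2, 9 and 2 reads in that order. Ligand RNA was thus at 0.516 CPM or less throughout, also in SAT library 1, where Gli1 was highest. Scube1, Scube2 and Scube3, which encode secreted proteins that help release ligand, were at 2.37 CPM or less in every library.

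Of these 54 genes, edgeR passed 0 for depot, 0 for the VAT gates and 0 for the CD26 gate by name, with 3, 7 and 14 at an unadjusted p under 0.05; other tools were not applied to these lists. When the SAT gate effect was set against that of VAT, 6 of the 54 passed by title, 3 in each direction, against the 6.61% of all tested genes given above, and 0 by name (2 at an unadjusted p under 0.05). In the SAT pair, 3 of the 54 were at least 2-fold higher in library 1 and 7 were lower, again without a test, against 6.79% and 6.78% of all tested genes. On the receptor side, the 8 genes reported here were all tested, and none of these 8 met the 2-fold rule in the SAT pair. Evc and Evc2, which bind SMO at the base of the cilium, were at 73.2 to 99.6 and 51.5 to 78.6 CPM.

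Disp1 encodes the transporter that releases lipid-bearing ligand. It was at 28.7 CPM in SAT library 1 and 92.0 CPM in SAT library 2, at 24.0 and 29.0 CPM in the VAT pair and at 72.9 CPM in the VAT CD26+CD142+ library. Both libraries named for CD26 were above the others, and the log2 change by name was 1.55 (SE 0.22, edgeR adjusted p = 0.0665). Gpc6, a glypican, was at 28.9 and 71.1 CPM in SAT, at 14.8 and 37.0 CPM in the VAT pair and at 102 CPM in the VAT CD26+CD142+ library.

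Among regulators of the GLI proteins, Sufu and Kif7, which restrain GLI activity, were at 21.2 to 32.3 and 7.93 to 13.8 CPM, and neither met the 2-fold rule in the SAT pair. Gpr161, a ciliary receptor that promotes GLI3 processing, was 2.78 times higher in SAT library 2 (2.45 to 3.16). Of the 12 cilium genes, all tested, 3 were lower in SAT library 1, against 6.78% of all tested genes: Rpgrip1l (2.95 times higher in library 2, 2.55 to 3.42), Dync2h1 (2.74, 2.41 to 3.13) and Cep290 (2.42, 1.92 to 3.07). The median log2 ratio of library 1 to 2 over the cilium list was -0.79, against 0.01 over all tested genes and 1.32 over the 9 genes.

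Of 14 genes listed as GLI targets in other tissues, 12 were tested, and they split in the SAT pair. Nr2f2 was 7.77 times (6.73 to 9.004), Bcl2 5.54 times (4.51 to 6.86) and Spry1 5.09 times (4.62 to 5.62) higher in library 1, whereas Osr2 was 8.96 times higher in library 2 (8.26 to 9.73). In VAT, Nr2f2 was at 75.3 and 53.5 CPM in the CD26-CD142+ pair and 27.6 CPM in the CD26+CD142+ library, so its level in the pair was near that of SAT library 1 (74.3 CPM), unlike Gli1. Foxf1 and Foxf2, classical targets in gut mesenchyme, were at 1.99 and 5.03 CPM or less.

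**Figure D5:**
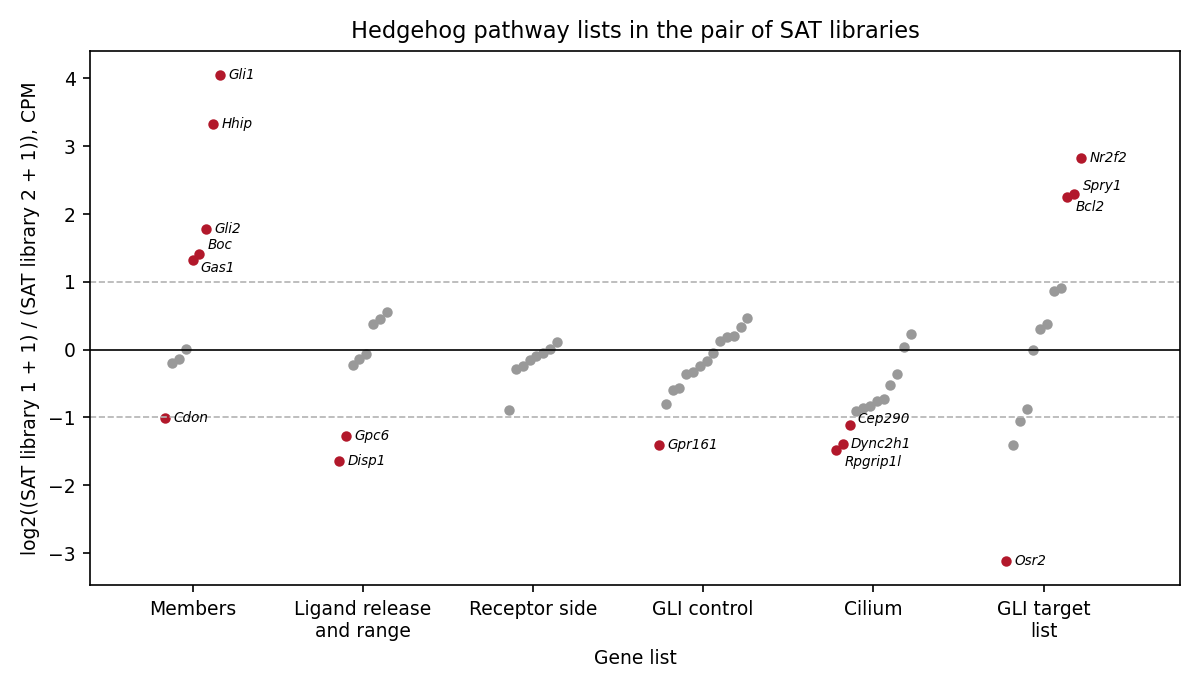
log2 ratio of SAT library 1 to SAT library 2 after adding 1 CPM, for the 9 genes and for the tested genes of 5 pathway lists; red points met the 2-fold rule with 10 CPM or more in the higher library, and dashed lines mark 2-fold. Gli1 and Hhip stand highest, and Osr2 lowest.

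Genes with the profile most like that of Gli1, Hhip and Ptch1 over the 5 libraries were taken among 13432 tested protein-coding genes, by the root mean square difference of centred log2(CPM + 1) values. Nearest to Gli1 were Spaar at 0.366 and Fxyd6 at 0.371, and nearest to Hhip were Fxyd6 at 0.162 and St6galnac2 at 0.168. Fxyd6 was at 48.9 and 3.43 CPM in SAT libraries 1 and 2, at 11.8 and 12.6 CPM in the VAT pair and at 5.44 CPM in the VAT CD26+CD142+ library. It thus had its highest and lowest values in the SAT pair, as Gli1 and Hhip did. Nearest to Ptch1 were Tead3 at 0.047 and Dennd4a at 0.052. With 5 libraries that differ also in depot, gate and depth, such likeness is a description.

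Ranked by the SD of log2(CPM + 1) over the libraries, Gli1, Hhip and Boc varied most, above 96.7%, 95.6% and 94.0% of tested genes, and Gli2, Gas1, Cdon and Gli3 followed at 89.6%, 82.8%, 75.4% and 73.4%. Ptch1 was near the middle, at 56.8%. Every one of the 9 genes overlaps 1 or 2 other annotated genes, the strand setting of the counting is not given in the sources used here, and reads of overlapping genes could not be told apart. The overlapping genes had at most 129 reads in a library, reached by Gm48488, whereas Gas1, which it overlaps, had 5244 reads or more. In SAT library 2, where Gli1 had 39 reads, the opposite-strand gene Arhgap9 had 4.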

How the data were processed

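Poly(A) RNA of 5 sorted libraries was sequenced. The authors deposited 1 table of raw counts per gene, with each gene's length in bases (another unit); the submitters' processing notes name HISAT2 2.0.5 and CASAVA, besides featureCounts 1.5.0-p3 and the build mm10. Groups follow titles, with library names as the alternative. Counts were scaled to CPM with TMM factors from edgeR 4.0.16 (R 4.3.3); filterByExpr at a minimum count of 10 kept 15920 genes. edgeR quasi-likelihood tests used Benjamini-Hochberg adjustment at 0.05 over these; the SE is the absolute log2 change over the root of the F statistic. DESeq2 1.42.0, limma-voom (limma 3.58.1), other scalings and filters, and leaving out each library were alternatives; those on the gates by name beyond the split itself, and leaving out each VAT replicate for the difference between depots, were added after seeing the data. The tests were checked on simulated data. All 9 genes are named; of the other lists, a set of preselected genes and any past a threshold. 1 gene of the lists is not reported here. The genes and lists were chosen with earlier results of these data known. Lone libraries were assumed to vary like the VAT pair. Replicates of VAT CD26-CD142+ differed beyond sampling noise (chi-square per degree of freedom 155) and were counted separately. Sequences are from RefSeq.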

Additional observations from a re-analysis of the deposited data

Results flagged for a closer look

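With gates by title, the CD26 gate effect differed between depots, by the test of the difference itself, for 8 pathway genes. They were found among the 9 Hedgehog genes and the 54 other tested pathway genes. The same test passed 6.61% of all tested genes. The log2 differences (SAT minus VAT) were 5.22 for Gli1, 7.64 for Hhip, 4.18 for Nr2f2, 3.69 for Bcl2 and 3.54 for Spry1, and -3.65 for Osr2, -3.28 for Gpc6 and -3.14 for Disp1. These values take SAT library 1 as CD26+, which its Dpp4 level goes against. By library name the same differences were -3.19 for Hhip, -1.73 for Nr2f2, -1.25 for Bcl2, -1.16 for Spry1, 2.67 for Osr2, -0.68 for Gpc6 and 0.22 for Disp1, and none of these passed. With gates by library name, Gli1 alone of the 9 Hedgehog genes and the 54 other tested pathway genes passed, at -4.10. By name 0.251% of all tested genes passed. No group holds 4 or more libraries, so single outlying libraries were not looked for.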

How the results depend on the processing

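The SAT gates rest on 1 library each and on labels that conflict, the VAT gates on 1 replicate pair, and Hhip on 6 to 272 reads a library, so small differences were not detectable. Of the 9 genes, depot passed 0 in all alternatives but DESeq2 (1). The VAT gates passed 0 in each setting with a test. The CD26 gate by title passed 0 to 2 when 1 library was left out and 0 otherwise. By library name it passed 3 with DESeq2, 1 without a filter (Hhip) and 0 to 2 when 1 library was left out. Over all genes, the gate by library name passed 1329 of 15920 with DESeq2 and 775 of 27413 without a filter. The difference between depots by title passed 1 with at least 5 CPM in 2 libraries, where Hhip was not tested, and 1 by library name. It passed 3, with Boc added, in DESeq2 and under upper-quartile scaling, where 1128 and 1420 of all 15920 genes passed. Upper-quartile scaling moved the median of all genes from 0.04 to 0.16. By name the difference between depots passed 0 with limma-voom. Apart from removal effects on which genes were tested, the cause was not tested.

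With the library number as a replicate block, depot passed 0 of the 9 genes, as did the CD26 gate by title and by name, and the depot change became -0.28 for Gli1 and -0.24 for Hhip. Numbers are not stated to mark a shared batch, and the other contrasts share too few numbers to be paired. Libraries numbered 2 alone gave depot changes of -2.58 for Gli1, -2.50 for Hhip and -0.034 for Smo; those numbered 1 alone gave 0.16 for Gli2 and 0.41 for Ptch1. Gli1 was also at -0.15 with limma-voom and -0.23 with the gate by title as a term. When 1 library was left out, depot changes ran from -2.56 to 2.10 for Gli1, -2.97 to 2.44 for Hhip, -0.977 to 0.0425 for Cdon and -0.013 to 0.055 for Smo. VAT gate changes then ran from -0.0263 to 1.01 for Ptch1, -0.65 to 0.15 for Gli2 and -0.30 to 0.17 for Gli3. Gate changes by name ran from -0.0751 to 0.217 for Gli3, which was -0.0136 under upper-quartile scaling, and from -0.0038 to 0.13 for Smo. Taking names for titles turned the difference between depots to -4.10 for Gli1, -1.61 for Gli2 and -3.19 for Hhip.

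Over all tested genes, depot passed 8 and between 0 and 461 (DESeq2) in alternatives, the VAT gates 254 and 222 to 491, the gate by title 0 and up to 522, the gate by name 95 and 0 (with the replicate block) to 2034 (without VAT CD26-CD142+ library 2), the difference by title 1053 and up to 1621, and by name 40 and 9 to 181.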
